A study of Mus musculus with 15 samples.

Results

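Immune cells that present antigen carry surface molecules that set whether a T cell is driven or restrained, and others that hold the cells together. Here 10 genes of this kind were followed in RAW264.7, a macrophage-like cell line of mouse origin: Cd40, Cd80, Cd86, Cd274, Pdcd1lg2, Icosl, Icam1, Vcam1, Cd44 and Itgal. They were found by their gene symbols among the noncontrol probes of the array, where they had 23 probes, out of 36870 gene names on it. All 5 groups were exposed, per the shared treatment protocol, to LPS (lipopolysaccharide, a bacterial wall component that drives inflammation) at 1 ug/ml for 16 h. At 1 h before LPS, 4 groups had received a glucocorticoid at 100 nM: DEX (dexamethasone), FF (fluticasone furoate), VSG158 or VSG159. The fifth group is labelled with the solvents EtOH and DMSO alone and is called vehicle; its labels do not repeat the LPS step. Each group had 3 arrays, so 15 samples were compared. The labels do not say that the 3 came from separate cultures (the series text speaks of duplicates), so p-values measure the spread between these arrays, which may be technical.

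CD80 and CD86 are the B7 ligands that T cells read through the activating receptor CD28 and the restraining receptor CTLA-4, PD-L1 (Cd274) and PD-L2 (Pdcd1lg2) engage the inhibitory receptor PD-1, and CD40 receives the CD40 ligand of helper T cells. ICAM-1 and VCAM-1 are adhesion ligands for integrins, Itgal encodes the alpha chain of LFA-1, the integrin that binds ICAM-1, and CD44 binds hyaluronan. In macrophages LPS signals through Toll-like receptor 4, and steroid-bound glucocorticoid receptor represses much of the inflammatory programme while it activates other genes.

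Levels are log2 processed signal minus the array's own 75th percentile of that signal, so 0 is the level of that percentile and 1 unit is a doubling. Differences between group means are given as log2 changes with their standard error (SE). They come from 1 limma fit over all 15 arrays, with p-values adjusted by Benjamini-Hochberg over all 19505 genes tested, and a gene is called when the adjusted p is under 0.05. A gene's value is that of its brightest tested probe. The microarray gives no absolute amounts, and in RNA from whole wells fewer expressing cells and less RNA per cell cannot be told apart.

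The arrays had 39.6% to 50.4% of their noncontrol spots well above background and no saturated spot. Of 12 macrophage markers, 11 were above background on all 15 arrays. The summed signal of the 12 was 937 to 1047 times the 75th percentile in vehicle and 877 to 1063 times in the steroid groups. Lyz2 alone gave 254 to 343. Against vehicle, 5 of the 12 were called lower and 3 higher with DEX and with FF. With VSG158 these were 6 and 3, and with VSG159 4 and 3, where 42.2% to 46.3% of all genes were called in these comparisons. The summed T cell list was 29.7 to 47.5 in vehicle, 53.6 to 106 under DEX, 31.5 to 52.3 under FF, 37.6 to 119.8 under VSG158 and 30.5 to 108 under VSG159. Most of it was Cd4, and the T cell markers Cd2, Cd3g and Cd8a were above background on none of the arrays. Elane (27.4 to 112) made up most of the neutrophil and mast cell sum, with Cpa3, Ly6g, Mcpt4 and Ngp never above background. Siglech (67.0 to 104) made up most of the dendritic cell sum, with Clec9a and Xcr1 never above background. The B cell, endothelial, fibroblast and epithelial sums stayed at or under 0.574. The part of these markers in the results was not tested. Of the 2 slides, slide 1 held vehicle, VSG158 and VSG159 replicates 1 and 2, and slide 2 held FF, DEX and VSG159 replicate 3.

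Of the 10 genes, 7 were measured and 3 were not. Pdcd1lg2 (1 probe), Icosl (2 probes), whose product is the ligand of the T cell receptor ICOS, and Vcam1 (2 probes) were well above background on 0 of 15 arrays. The processed signal was 5.89 to 21.1 for Pdcd1lg2, 5.43 to 18.5 and 12.4 to 25.1 for Icosl, and 5.71 to 19.2 and 5.17 to 22.2 for Vcam1. The lowest signal that counted as above background was 25.6 to 91.4, depending on the array. These 3 genes therefore have an upper bound in every group and no fold change. The other 7 genes had 18 tested probes.

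Against vehicle, 4 of the 7 measured genes were lower with DEX (Cd40, Cd274, Cd44 and Itgal), and 6 were lower with each of FF, VSG158 and VSG159 (the same 4 with Cd80 and Cd86). None was higher, and Icam1 was called in no comparison. The median change of the 7 was -0.56 for DEX, -0.90 for FF, -0.97 for VSG158 and -1.0 for VSG159, where the median over all genes tested lay between -0.06 and 0.03. Calls were common in these comparisons: 46.3% of all genes tested were called under DEX, 42.2% under FF, 44.2% under VSG158 and 44.1% under VSG159, and 23.1%, 21.4%, 24.5% and 25% of all genes were called lower. These shares depended on the scaling and on a term for array position. With arrays scaled to their median 4926 of 19503 genes were called under DEX and 4716 of 19504 under FF. With the slide alone as a fixed block 8248 were called under DEX and 7359 under FF. With slide and array position as terms 38 were called under DEX and 1070 under FF. The arrays of the 2 groups did not overlap for 4 of the 7 genes under DEX (59.9% of all genes), 6 under FF (57.2%), 6 under VSG158 (52.3%) and 6 under VSG159 (50.8%).

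**Figure D1:**
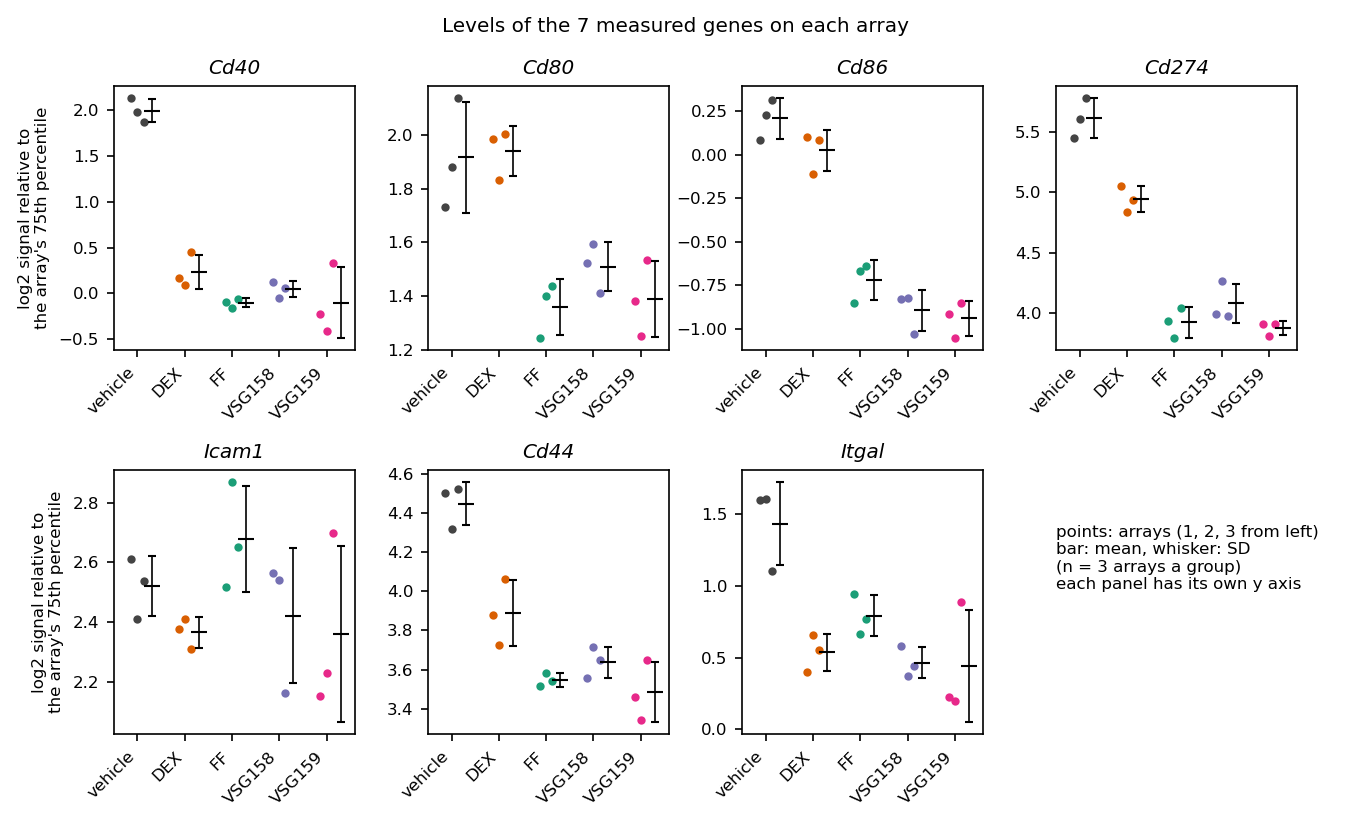
Log2 signal relative to the array's 75th percentile (y, a separate axis for each gene) of the 7 measured genes in the 5 groups (x); points are arrays, bars are means and whiskers SD (n = 3). Cd40, Cd44 and Itgal separate vehicle from all 4 steroid groups, Cd80 and Cd86 separate vehicle and DEX from the other 3 groups, Cd274 shows a step at DEX and a further step below it, and the arrays of each steroid overlap or touch those of vehicle for Icam1.

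**Figure D2:**
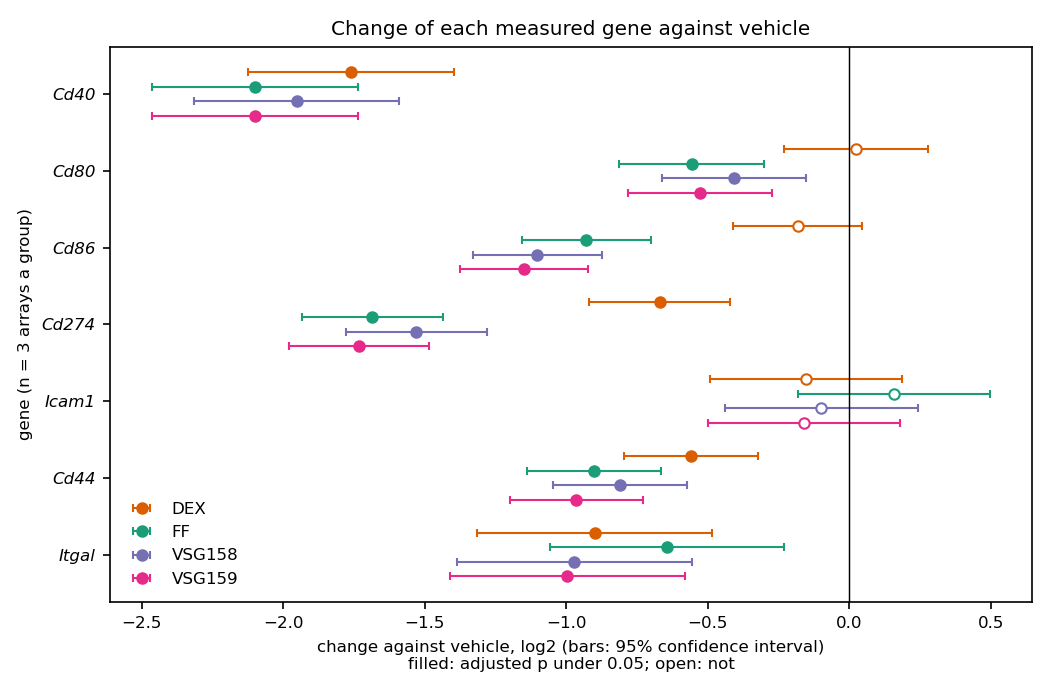
Log2 change against vehicle (x) of the 7 measured genes (y) for each steroid, with 95% confidence intervals from the limma fit and filled points for adjusted p under 0.05. On these brightest probes Cd40 has the lowest changes, at -1.76 to -2.10, and the DEX points of Cd40, Cd80, Cd86, Cd274 and Cd44 lie to the right of the other steroids.

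The B7 ligand Cd80 (brightest probe at mm9 chr16:38486772-38486831, plus strand) was as high with DEX as with vehicle and lower with the other 3 steroids. Its level on the 3 arrays was 1.73, 1.88 and 2.14 with vehicle and 1.98, 1.83 and 2.0 with DEX. It was 1.24, 1.40 and 1.44 with FF, 1.52, 1.59 and 1.41 with VSG158, and 1.38, 1.25 and 1.53 with VSG159. The DEX arrays lay within the vehicle range, while no array of FF, VSG158 or VSG159 reached the lowest vehicle array. Against vehicle, Cd80 changed by -0.56 ± 0.12 (SE; adjusted p = 0.00206) with FF, -0.41 ± 0.12 (adjusted p = 0.0135) with VSG158 and -0.53 ± 0.12 (adjusted p = 0.00291) with VSG159. With DEX the change was 0.02, with a 95% interval of -0.23 to 0.28 (adjusted p = 0.886). Without vehicle replicate 3 the VSG158 change of Cd80 was -0.30 (adjusted p = 0.0582), and with arrays scaled to their median all 3 Cd80 calls were lost (adjusted p from 0.158 to 0.198).

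The 3 other Cd80 probes gave the same set of calls. In a fit with every tested probe as a row, where p-values are adjusted over 28507 probes, they changed by -0.77, -0.81 and -0.99 with FF, by -0.76, -0.71 and -0.92 with VSG158 and by -0.80, -1.02 and -0.83 with VSG159, all called lower, where 43%, 45.6% and 44.9% of all probes were called. With DEX they changed by -0.17, -0.27 and -0.24, none called (adjusted p from 0.179 to 0.304), where 47.1% of probes were called. One spot of a Cd80 probe (A_66_P130432) on vehicle replicate 1 read 25184 and was flagged by the scanner software, so that vehicle mean rests on 2 arrays.

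Cd86, the second B7 ligand, was lower with FF, VSG158 and VSG159 than with vehicle, and its probes disagreed on DEX. On the brightest probe (A_55_P1971951, mm9 chr16:36603961-36604020, minus strand) the level was 0.08, 0.23 and 0.31 with vehicle and 0.10, -0.11 and 0.09 with DEX. It was -0.85, -0.67 and -0.64 with FF, -0.83, -0.82 and -1.03 with VSG158, and -0.91, -1.05 and -0.85 with VSG159. Every array of these last 3 groups lay below every vehicle and DEX array. Cd86 changed against vehicle by -0.93 ± 0.10 (SE; adjusted p = 1.66e-05) with FF, -1.10 ± 0.10 (adjusted p = 4.14e-06) with VSG158 and -1.15 ± 0.10 (adjusted p = 2.84e-06) with VSG159. The DEX change on this probe was -0.18, with a 95% interval of -0.41 to 0.05 (adjusted p = 0.174).

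On a Cd86 probe nearer the start of the same transcript (A_51_P174723, from base 815, mm9 chr16:36615381-36615440, minus strand) DEX was called lower. Its level was 0.63, 0.57 and 0.54 with vehicle and -0.78, -1.0 and -0.84 with DEX, and -1.39 or lower on every array of the other steroids. The 3 vehicle arrays stood apart from all 12 steroid arrays. The changes on this Cd86 probe were -1.46 ± 0.18 (SE; adjusted p = 5.35e-05) under DEX, -2.09 ± 0.18 (adjusted p = 2.22e-06) under FF, -2.34 ± 0.18 (adjusted p = 9.26e-07) under VSG158 and -2.33 ± 0.18 (adjusted p = 9.26e-07) under VSG159. Another Cd86 probe of that transcript (A_52_P145861, from base 1928) changed by -0.68 under DEX (adjusted p = 0.00275), -0.94 under FF, -1.34 under VSG158 and -1.33 under VSG159. The last Cd86 probe (A_55_P2715366), designed on another Cd86 transcript and above background on 13 of 15 arrays, changed by 0.03 under DEX (adjusted p = 0.914), -0.96 under FF, -0.97 under VSG158 and -1.29 under VSG159. FF, VSG158 and VSG159 were called lower on all 4 Cd86 probes and DEX on 2 of the 4, and with the mean of a gene's probes in place of the brightest, Cd86 was called lower with DEX too (-0.57, adjusted p = 0.00222).

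The Cd86 probes that differ on DEX are shown for their place on the transcript: the first in full, and the last 30 of the 60 bases of the brightest probe, from base 2473, with the hexamer AATAAA in capitals (a polyadenylation signal in many transcripts; here a match of letters, held by 11.1% of the 28507 tested probes).
Cd86 A_51_P174723: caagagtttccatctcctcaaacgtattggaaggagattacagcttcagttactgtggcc
Cd86 A_55_P1971951, last 30 bases: gtggatttcAATAAAgttttcttgaatttt
Set within each array, the first of these probes minus the brightest one shifted by -1.27 from vehicle to DEX, -1.16 to FF, -1.24 to VSG158 and -1.18 to VSG159. From DEX to the other steroids the shift was 0.11, 0.04 and 0.10. This pair was chosen after its values were seen, and the shifts are a description with no test.

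**Figure D3:**
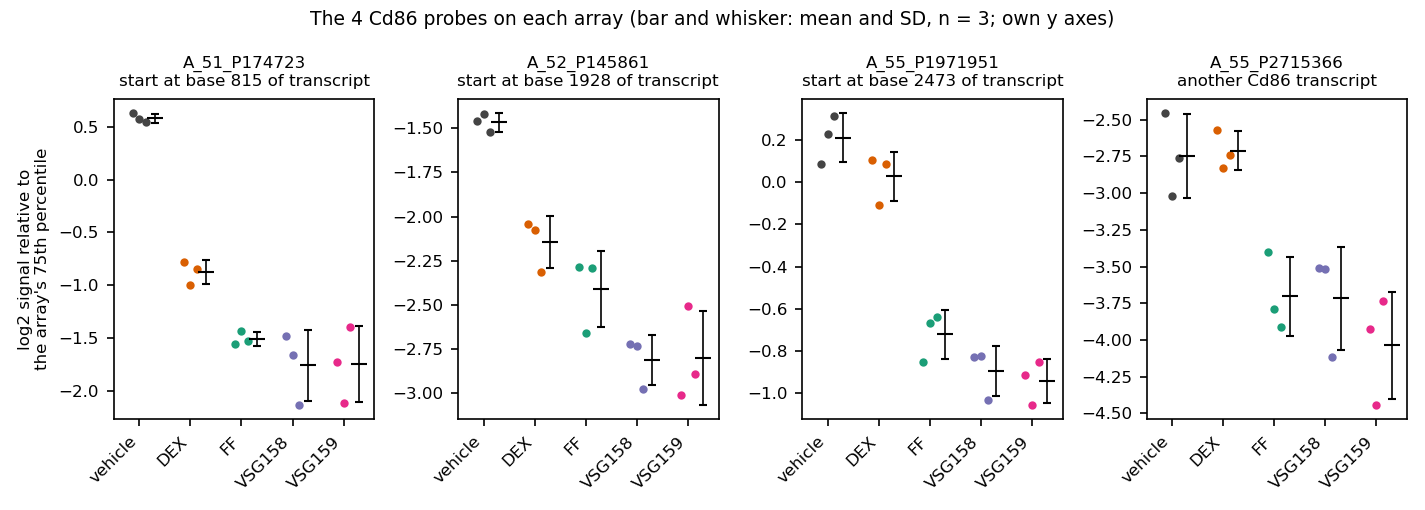
Log2 signal relative to the array's 75th percentile (y, a separate axis for each probe) of the 4 Cd86 probes in the 5 groups (x); points are arrays, bars are means and whiskers SD (n = 3). DEX lies between vehicle and the other steroids on A_51_P174723 and A_52_P145861, and beside vehicle on A_55_P1971951 and A_55_P2715366.

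Cd274, which encodes PD-L1 (probe at mm9 chr19:29462363-29462422, plus strand), was lower with every steroid and lower again with FF, VSG158 and VSG159 than with DEX. Its level was 5.45, 5.60 and 5.78 with vehicle and 5.05, 4.84 and 4.94 with DEX. It was 3.94, 3.79 and 4.05 with FF, 3.99, 4.27 and 3.98 with VSG158, and 3.91, 3.82 and 3.91 with VSG159. The values formed 3 tiers with no overlap: vehicle, then DEX, then the other 3 steroids. Cd274 changed by -0.67 ± 0.11 (SE; adjusted p = 0.000514) with DEX, or 1.59-fold lower, and by -1.69 ± 0.11 (adjusted p = 2.51e-07) with FF, or 3.22-fold lower. With VSG158 it was 2.89-fold lower (-1.53 ± 0.11, adjusted p = 5.79e-07) and with VSG159 3.32-fold lower (-1.73 ± 0.11, adjusted p = 2.12e-07).

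Cd40, the receptor for CD40 ligand (probe at mm9 chr2:164896301-164896360, plus strand), had the lowest change of the 7 genes with each steroid when each gene was read on its brightest probe. The Cd86 probe A_51_P174723, not the brightest of its gene, had lower changes than Cd40 with VSG158 and VSG159. The level of Cd40 was 2.13, 1.98 and 1.88 with vehicle, 0.17, 0.10 and 0.45 with DEX, and -0.09, -0.16 and -0.06 with FF. With VSG158 it was 0.12, -0.05 and 0.06, and with VSG159 -0.23, -0.41 and 0.33. All 12 steroid arrays lay below all vehicle arrays. Cd40 was 3.39-fold lower with DEX (-1.76 ± 0.17 SE, adjusted p = 5.29e-06), 4.29-fold with FF (-2.10 ± 0.17, adjusted p = 9.00e-07), 3.87-fold with VSG158 (-1.95 ± 0.17, adjusted p = 1.73e-06) and 4.29-fold with VSG159 (-2.10 ± 0.17, adjusted p = 9.29e-07). Among the steroid groups the order of means was DEX, VSG158, FF and VSG159, and no neighbours in it were called apart (adjusted p from 0.602 to 1.00), though the VSG158 and FF arrays did not overlap.

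Beside the receptor, 14 genes of CD40 signalling were all measured. Against vehicle, 3 were lower and 1 higher with DEX, and 7 were lower and 1 higher with each of FF, VSG158 and VSG159; the median change was -0.07, -0.38, -0.33 and -0.44 in that order. That is 4 of 14 called with DEX, where 46.3% of all genes were called, and 8 of 14 with each other steroid, where 42.2% to 44.2% were. The adaptor Traf6 changed by -0.95 ± 0.15 (SE) under DEX, -1.57 under FF, -1.33 under VSG158 and -1.60 under VSG159. Traf1 changed by -0.66, -0.97, -1.01 and -1.15 in the same order. Tank, a TRAF-binding protein, changed by -0.25 with DEX (adjusted p = 0.0816) and was lower by -0.84, -0.70 and -0.90 with the other steroids. Traf3, which restrains noncanonical NF-kB signalling, was the gene that rose, by 0.79 ± 0.10 under DEX, 0.64 under FF, 0.64 under VSG158 and 0.67 under VSG159.

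Of the adhesion genes, Icam1 passed the test in none of the groups on its brightest probe (mm9 chr9:20833186-20833245, plus strand). The level was 2.61, 2.41 and 2.54 with vehicle, 2.38, 2.41 and 2.31 with DEX, 2.52, 2.87 and 2.65 with FF, 2.56, 2.54 and 2.16 with VSG158, and 2.16, 2.23 and 2.70 with VSG159. The arrays of every steroid overlapped or touched those of vehicle. The changes were -0.15 under DEX (95% interval -0.49 to 0.19), 0.16 under FF (-0.18 to 0.50), -0.10 under VSG158 (-0.44 to 0.24) and -0.16 under VSG159 (-0.50 to 0.18). An F test over the 5 groups gave an adjusted p of 0.361. The other Icam1 probe (A_52_P613241) was called lower with DEX alone (-0.34 ± 0.11 SE, adjusted p = 0.0306). That call was lost without vehicle replicate 1 or 2 or DEX replicate 2 or 3 (adjusted p up to 0.11), and with slide and array position as terms the change was 0.53 (adjusted p = 0.716). With the slide as a fixed block the brightest Icam1 probe was called lower with DEX too (-0.66, adjusted p = 0.0347).

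Itgal, the alpha chain of LFA-1, was lower in all 4 steroid groups on its brightest probe (A_51_P466378, mm9 chr7:134477160-134477219, plus strand). The level was 1.60, 1.61 and 1.10 with vehicle, 0.40, 0.66 and 0.55 with DEX, 0.94, 0.66 and 0.77 with FF, 0.58, 0.37 and 0.44 with VSG158, and 0.23, 0.20 and 0.89 with VSG159. No steroid array reached the lowest vehicle array. The changes were -0.90 ± 0.19 (SE; adjusted p = 0.0022) under DEX, -0.64 ± 0.19 (adjusted p = 0.016) under FF, -0.97 ± 0.19 (adjusted p = 0.00124) under VSG158 and -1.0 ± 0.19 (adjusted p = 0.00103) under VSG159. All 4 Itgal calls were lost when the mean of the 3 Itgal probes was used (changes from -0.30 to -0.48, adjusted p from 0.137 to 0.346). These probes were designed on different transcript records. The FF call of Itgal was also lost without vehicle replicate 1, vehicle replicate 2 or FF replicate 2, where the lowest and highest changes over all left-out arrays were -0.81 and -0.56.

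The other Itgal probes, A_55_P2184606 and A_55_P2935675, were designed on other transcript records than the brightest probe. They are nearly the same sequence, and they are shown because they read apart. They share a run of 56 of their 60 bases, whose beginning is in capitals in the first 30 bases of each. The files place them at mm9 chr7:134474708-134474767 and chr7:134474706-134474766, plus strand.
Itgal A_55_P2184606, first 30 bases: gtcCCACTGCTCTGTCTTTTATTAACAATG
Itgal A_55_P2935675, first 30 bases: ctgtCCACTGCTCTGTCTTTTATTAACAAT
On VSG158 replicate 3 and VSG159 replicates 1 and 2 the first read 2.0, 2.13 and 1.51, and the second 0.10, 0.42 and 0.27. The first minus the second was 1.24 to 1.90 on those 3 arrays and -0.89 to 0.78 on the other 12. The same 3 arrays had 889, 541 and 559 spots marked non-uniform by the scanner software, against 26 to 218 on the others, though none of these Itgal spots was marked; the part of spot quality was not tested. A_55_P2184606 was called in no steroid group. Its mean was 0.28 with vehicle and 0.27 with FF, and higher with DEX (0.77), VSG158 (0.69) and VSG159 (1.15), unlike the brightest Itgal probe. A_55_P2935675 was called lower with VSG158 alone (-0.86 ± 0.31 SE, adjusted p = 0.0417). Leaving out any 1 of 8 arrays ended that call: vehicle replicate 2 or 3, VSG158 replicate 2 or 3, VSG159 replicate 2, FF replicate 2 or 3, or DEX replicate 2. Over left-out arrays its change lay between -1.18 and -0.61 (adjusted p up to 0.161). Without the 3 arrays, an alternative chosen after seeing the data, the VSG159 group keeps 1 array, assumed to vary like the others. Its changes were then -0.55 for Itgal (adjusted p = 0.0849) and -0.38 for Cd80 (adjusted p = 0.0994), so both calls were lost.

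**Figure D4:**
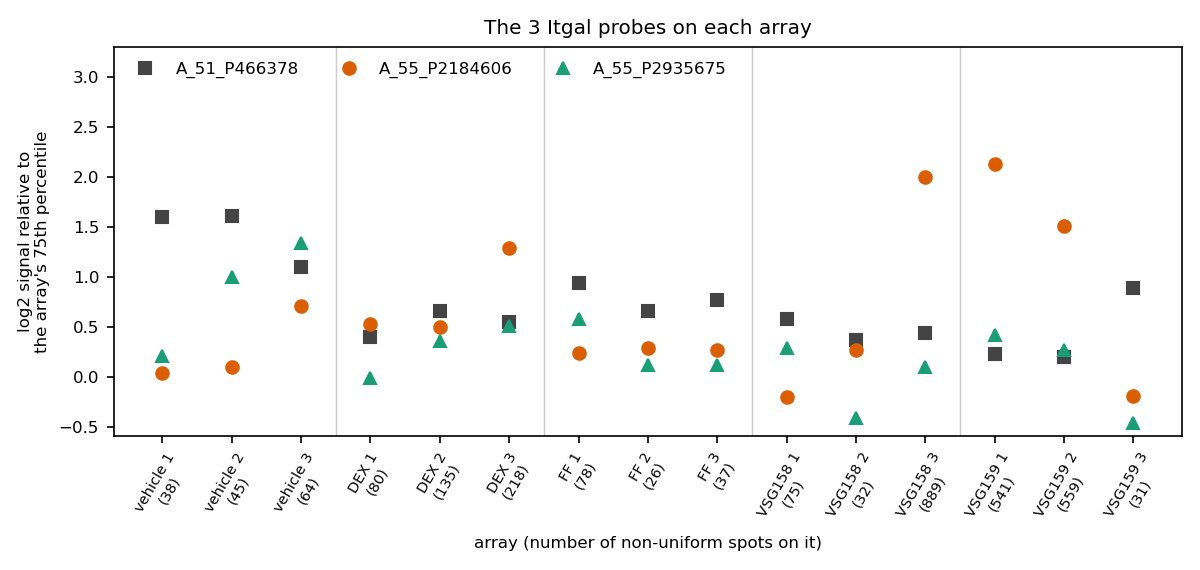
Log2 signal relative to the array's 75th percentile (y) of the 3 Itgal probes on each of the 15 arrays (x), with the number of non-uniform spots on the array in brackets. A_55_P2184606 has its highest values, 2.0, 2.13 and 1.51, on VSG158 replicate 3 and VSG159 replicates 1 and 2, the arrays with 889, 541 and 559 such spots.

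Cd44, the hyaluronan receptor, was lower in all steroid groups on its brightest probe (A_55_P2166501, mm9 chr2:102654278-102654337, minus strand). The level was 4.50, 4.32 and 4.52 with vehicle, 3.88, 3.73 and 4.06 with DEX, 3.51, 3.58 and 3.54 with FF, 3.55, 3.71 and 3.65 with VSG158, and 3.46, 3.34 and 3.65 with VSG159. Vehicle stood above every steroid array, and DEX above the arrays of the other 3. Cd44 changed by -0.56 ± 0.11 (SE; adjusted p = 0.00122) under DEX, -0.90 ± 0.11 (adjusted p = 2.82e-05) under FF, -0.81 ± 0.11 (adjusted p = 6.89e-05) under VSG158 and -0.96 ± 0.11 (adjusted p = 1.62e-05) under VSG159. A second bright Cd44 probe (A_55_P2912261), from base 4134 of the same transcript where the first starts at base 2614, was called in none of the groups (-0.02, -0.14, 0.02 and -0.27, adjusted p from 0.0719 to 0.9). The third Cd44 probe was dim, above background on 10 of 15 arrays, and was not called either. Its mean was -3.54 with vehicle and lower with DEX (-4.09), FF (-4.68), VSG158 (-4.47) and VSG159 (-4.27). The DEX call of Cd44 was lost with median scaling (adjusted p = 0.0683) and with the mean of its probes (adjusted p = 0.125).

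Against DEX, the genes of the 7 called lower with any other steroid were Cd80, Cd86 and Cd274. With FF, 3 of the 7 were called lower (Cd80, Cd86 and Cd274), where 4.14% of all genes were called and 2.28% called lower. With VSG158 2 were called lower (Cd86 and Cd274), with 1.99% of all genes called and 0.933% called lower. With VSG159 3 were called lower (Cd80, Cd86 and Cd274), with 5.55% called and 4.11% called lower. The median change of the 7 genes was -0.34, -0.25 and -0.40, beside -0.03, -0.07 and -0.08 over all genes. All 7 genes had non-overlapping arrays between FF and DEX (38.4% of all genes), with Icam1 and Itgal higher and the others lower with FF. Against DEX 4 did for VSG158 (22%) and for VSG159 (26.8%), all of them lower.

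Cd274 was 2.02-fold lower with FF than with DEX (-1.02 ± 0.11 SE, adjusted p = 0.00227), 1.81-fold lower with VSG158 (-0.86 ± 0.11, adjusted p = 0.00507) and 2.09-fold lower with VSG159 (-1.06 ± 0.11, adjusted p = 0.00097). Cd86 was 1.68-fold lower with FF (-0.75 ± 0.10, adjusted p = 0.00477), 1.89-fold with VSG158 (-0.92 ± 0.10, adjusted p = 0.00232) and 1.95-fold with VSG159 (-0.97 ± 0.10, adjusted p = 0.00097). Cd80 was 1.5-fold lower with FF (-0.58 ± 0.12, adjusted p = 0.0229) and 1.47-fold with VSG159 (-0.55 ± 0.12, adjusted p = 0.0236), and its VSG158 change of -0.43 was not called (adjusted p = 0.0872). On the other Cd86 probes, VSG158 and VSG159 were called below DEX on all 3, and FF on 1 of the 3 (A_55_P2715366). These 7 probe calls depended on single arrays: each was lost without at least 2 of the 15 arrays taken in turn, with adjusted p up to 0.141 for VSG158, 0.108 for VSG159 and 0.127 for FF. Of all probes 2.39%, 4.77% and 4.27% were called with VSG158, VSG159 and FF. The Cd80 calls depended on single arrays: over left-out arrays the adjusted p ranged from 0.0165 to 0.1 with FF, where the call was lost without any 1 FF array or without DEX replicate 1 or 3. With VSG159 it ranged from 0.0173 to 0.103, and the Cd80 call was lost without VSG159 replicate 1 or 2 or DEX replicate 1 or 3.

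The other 4 genes were not called against DEX. Cd44 changed by -0.34 with FF (adjusted p = 0.092), -0.25 with VSG158 (adjusted p = 0.268) and -0.40 with VSG159 (adjusted p = 0.0511). Cd40 changed by -0.34, -0.19 and -0.34 with 95% intervals of -0.70 to 0.02, -0.56 to 0.17 and -0.70 to 0.02. Itgal changed by 0.26, -0.07 and -0.10 with intervals of -0.16 to 0.67, -0.49 to 0.34 and -0.51 to 0.32, and Icam1 by 0.31, 0.06 and -0.01 with intervals of -0.03 to 0.65, -0.28 to 0.39 and -0.35 to 0.33. Without VSG159 replicate 3 the VSG159 calls rose to 5, with Cd40 (-0.56, adjusted p = 0.0257) and Cd44 (-0.49, adjusted p = 0.0277) added. With arrays scaled to their median, 0 of the 7 genes were called against DEX with any steroid, where FF against DEX called 2 genes in all.

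**Figure D5:**
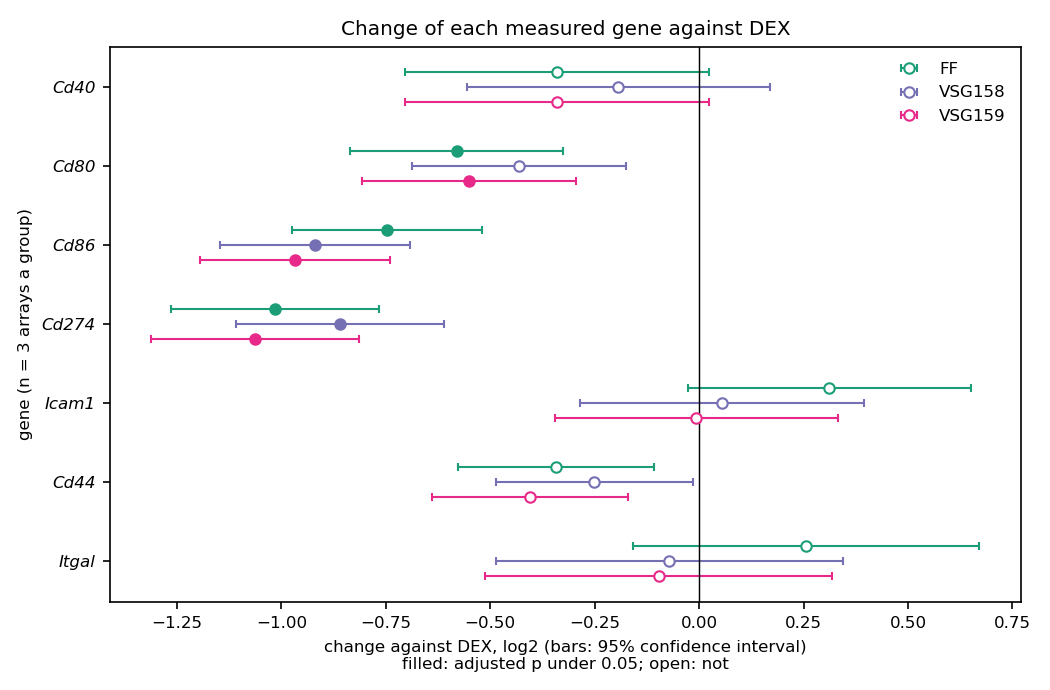
Log2 change against DEX (x) of the 7 measured genes (y) for FF, VSG158 and VSG159, with 95% confidence intervals from the limma fit and filled points for adjusted p under 0.05. Cd86 and Cd274 are filled for all 3 steroids, at -0.75 to -1.06, while the intervals of Cd40, Icam1 and Itgal cross 0.

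FF carries a furoate ester that DEX lacks, and all steroids were given at the same dose and time. Between FF, VSG158 and VSG159, 0 of the 7 genes and 0 of all genes (0%) were called in VSG158 against FF, VSG159 against FF or VSG159 against VSG158 by limma. VSG158 and FF lay on different slides. With the slide as a fixed block, 34 of all genes were called in VSG159 against VSG158, 1 in VSG159 against FF and 0 in VSG158 against FF, and none of the 7 was among them. With slide and array position as terms, 5 were called in VSG159 against FF. At an unadjusted p under 0.05 the count of the 7 was 0 in each, and over all genes it was 1229, 1177 and 1203. The lowest unadjusted p among the 7 was that of Cd86 in VSG159 against FF, with a change of -0.22 (95% interval -0.45 to 0.01). Over the 7 genes the 95% intervals spanned -0.74 to 0.51 in VSG158 against FF, -0.77 to 0.36 in VSG159 against FF, and -0.51 to 0.39 in VSG159 against VSG158. Arrays did not overlap for 2 of the 7 genes (Cd40 and Itgal; 14.1% of all genes), 0 (11.2%) and 1 (Cd274; 8.13%).

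Slide and treatment were partly bound together. VSG158 and vehicle lay wholly on slide 1 and FF and DEX wholly on slide 2, so those changes are within-slide values. Array positions ran in the order of the groups. On slide 1 vehicle held positions 1 to 3, VSG158 4 to 6 and VSG159 7 and 8. On slide 2 VSG159 held position 1, FF 2 to 4 and DEX 5 to 7. Position and treatment were thus partly bound together within a slide too. Within slide 1 the VSG159 group is replicates 1 and 2, which had 541 and 559 spots marked non-uniform. Against vehicle its changes there were -2.32 for Cd40, -0.60 for Cd80, -1.19 for Cd86, -1.75 for Cd274, -1.05 for Cd44 and -1.22 for Itgal, all called, and -0.33 for Icam1 (adjusted p = 0.12). Calls were common in that fit too, with 8736 of 19268 genes called. Within slide 2 the VSG159 group is replicate 3 alone, assumed to vary like the FF and DEX arrays. Against DEX its changes were -0.41 for Cd80 (adjusted p = 0.128), -0.88 for Cd86 (adjusted p = 0.0549) and -1.03 for Cd274 (adjusted p = 0.051). DEX and FF shared no slide with vehicle, and VSG158 none with DEX. With the slide as a fixed block, which the VSG159 arrays alone tie together, Cd274 against vehicle changed by -0.72 with DEX (adjusted p = 0.019) and Cd40 by -2.41 (adjusted p = 2.13e-05), and in VSG158 against DEX Cd86 changed by -0.79 (adjusted p = 0.0421) and Cd274 by -0.81 (adjusted p = 0.0532).

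Related genes from 5 further lists are given by their counts, and up to 4 genes of each by the smallest F-test p over the groups. Of 12 other B7 and CD28 family genes, 5 were measured: 3 were lower with DEX and 4 with each other steroid, none higher, with median changes of -0.54, -0.80, -0.79 and -0.55, where 21.4% to 25% of all genes were called lower. Cd28, the receptor for both B7 ligands, changed by -2.13 ± 0.16 (SE) under DEX, -2.68 under FF, -2.58 under VSG158 and -2.61 under VSG159. Vsir, the checkpoint ligand VISTA, changed by -1.08, -1.20, -1.44 and -1.36, and Btn1a1 by -0.54, -0.80, -0.79 and -0.55. Cd276 (B7-H3) was, like Cd80, called against vehicle with every steroid but DEX, at -0.15 under DEX (adjusted p = 0.327), -0.60 under FF, -0.42 under VSG158 and -0.43 under VSG159. None of the 5 was called against DEX.

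Of 14 TNF superfamily costimulation genes, 7 were measured, and 3 were lower and 0 higher in each steroid group, where 21.4% to 25% of all genes were called lower. Tnfrsf9, the costimulatory receptor 4-1BB, changed by -3.23 ± 0.21 (SE) under DEX, -4.53 under FF, -4.56 under VSG158 and -4.90 under VSG159, and was the gene of this list called against DEX, by -1.31, -1.33 and -1.68. Its ligand Tnfsf9 changed by -0.59, -1.08, -0.93 and -1.11 against vehicle, and Tnfsf14 by -2.78, -2.65, -3.09 and -2.96. Tnfrsf14, the receptor of Tnfsf14, was not called (0.17, 0.03, -0.35 and 0.51).

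Other inhibitory and checkpoint genes went both ways: of 19 measured, 7 were lower and 5 higher with DEX, 8 and 2 with FF, 8 and 3 with VSG158, and 9 and 3 with VSG159, with medians of -0.02, -0.12, -0.20 and -0.15, beside the same 42.2% to 46.3% of all genes. Slamf7 changed by -3.04 ± 0.17 (SE), -3.21, -2.99 and -2.76, and the TIGIT ligands Nectin2 by -1.29, -1.61, -1.60 and -1.68 and Pvr by -0.65, -1.39, -1.18 and -1.28. Havcr2, the checkpoint receptor TIM-3, rose by 0.95, 0.92, 0.94 and 0.86. Pvr was lower than with DEX after FF (-0.73, adjusted p = 0.0128) and VSG159 (-0.62, adjusted p = 0.0201).

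Of 18 measured leukocyte integrins and adaptors, 5 were lower and 4 higher with DEX, 7 and 4 with FF, 8 and 3 with VSG158, and 6 and 3 with VSG159. Their median changes were -0.18, -0.10, -0.49 and -0.30, and 42.2% to 46.3% of all genes were called in these comparisons. Itgam, the alpha chain of Mac-1 and also one of the macrophage markers, rose by 0.98 ± 0.09 (SE), 0.95, 1.0 and 0.99 where Itgal fell on its brightest probe. Itgav was lower at -0.98, -1.52, -1.30 and -1.52, the integrin regulator Cyth1 at -0.81, -1.21, -1.13 and -1.15, and Fermt2 at -1.51, -2.34, -1.81 and -2.38. Of 27 measured other adhesion receptors and CD44 partners, 6 were lower and 7 higher with DEX, 11 and 6 with FF, 9 and 8 with VSG158, and 11 and 6 with VSG159, with medians of 0.00, -0.30, -0.29 and -0.29. Icam2, an LFA-1 ligand like ICAM-1, rose by 1.94 ± 0.13, 2.39, 2.15 and 2.04 where Icam1 was not called, and Cd33 rose by 1.64, 1.74, 1.65 and 1.54. Hmmr, a second hyaluronan receptor, rose by 0.62, 1.34, 0.94 and 1.14 where Cd44 fell on its brightest probe. The tetraspanin Cd9 was lower at -0.63, -1.21, -1.14 and -1.33. Cd9 was also lower than with DEX in all 3 other groups (-0.58, -0.51 and -0.70).

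Across the 15 arrays, which share the 5 treatments, Cd86 and Cd274 had a Pearson correlation of 0.953, Cd40 and Cd44 of 0.95, Cd274 and Cd44 of 0.942 and Cd80 and Cd86 of 0.919, while Icam1 correlated with the other 6 at -0.03 to 0.42. The named genes whose levels correlated best with each one over 15 arrays were Ip6k1 (0.99), Cd83 (0.989) and Tmem171 (0.988) for Cd40, and Serpinb2 (0.989), Ccdc50 (0.988) and Kdm6b (0.986) for Cd274. For Cd80 they were Ak4 (0.97), Polm (0.966) and Wdr33 (0.964), and for Cd86 Exoc1 (0.968), Rcan1 (0.964) and Vta1 (0.963). For Cd44 they were Eaf1 (0.988), Rb1cc1 (0.988) and Dusp5 (0.98), for Itgal Trim14 (0.979), Snx32 (0.971) and Arid3b (0.971), and for Icam1 Ttc4 (0.951), Rlim (0.94) and Tmem192 (0.939). Cd83, whose product is a surface marker of mature dendritic cells, is the 1 costimulation-related gene in these 21.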

How the data were processed

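The deposited scanner files give, per the file headers, a processed signal intensity per spot, made by the authors with Feature Extraction 10.7.3.1 (protocol GE1_107_Sep09, probes placed on mm9), beside the raw mean and local background intensity that an alternative used. Per the file headers the deposited outlier and above-background flags are other, yes-or-no values. The deposited value table, on a log2 scale, served as an alternative, with 0 columns unused. The submitters' processing notes name limma. Of 62976 spots per array, 3671 controls were left out and flagged spots were set to missing. Log2 processed signals, each scaled to its array's 75th percentile (695 to 1223), were fitted with limma 3.58.1 in R 4.3.3 (data.table, version 1.17.8, read the files) for probes well above background on at least 2 of 3 arrays of a group (28507 probes, 19505 genes). Group was the only term, and the 10 pairwise contrasts were two-sided. On data simulated for DEX against vehicle over 19505 genes, 50 genes were changed at each size. The fit recovered 28% of genes changed by 0.5, 66% by 1, 86% by 2 and 50% by -1 (log2), with 4 false calls. In the data 9036 genes were called in this comparison, so these rates need not carry over.

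The members and lists were chosen with earlier results of these data known. Named genes are all members, up to 4 genes of each list by F-test p, and the 3 best correlated named genes of each member. Alternatives were scaling, background, filter, probe choice, slide, replicate number, single arrays left out and 2 added later. The number of arrays limits the precision.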

Additional observations from a re-analysis of the deposited data

How the results depend on the processing

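The count of called genes among the 7 stayed within 1.5 times its reported value in 269 repeats with another setting and moved further in 17. These repeats include VSG158 against FF, VSG159 against FF and VSG159 against VSG158. There the main fit called 0 of all genes, so a count of 0 had little room to move and says little on stability. For DEX against vehicle the count went from 4 to 0 with the slide as a fixed block and the array's position as a linear term, an alternative chosen after seeing the data, and for FF against vehicle from 6 to 2. Of all genes 38 and 1070 were called there. In FF against DEX the reported 3 became 1 with normexp background correction and quantile normalization, 0 with median scaling, 1 with the deposited value table and 0 with slide and position. Of all genes 454, 2, 379 and 0 were called in that order. In VSG158 against DEX the reported 2 became 0 with median scaling, 1 with the value table, 1 with the slide as a fixed block, 0 with the slide as a random block, 0 with only the 2 groups fitted and 0 with slide and position. Of all genes 14, 234, 929, 0, 0 and 0 were called in that order. In VSG159 against DEX the reported 3 became 0 with median scaling, with only the 2 groups fitted, within slide 2 and with slide and position, and it ranged from 2 to 5 when single arrays were left out. Within slide 2 the VSG159 group is 1 array, assumed to vary like the others there. In VSG159 against DEX 30 of all genes were called with median scaling, 0 with only the 2 groups fitted and 0 with slide and position. Where 0 of all genes were called, the loss is not particular to the 7. The causes were not tested. The fits of only 2 groups or 1 slide hold fewer arrays, and the position term leaves fewer degrees of freedom. Position also ran in the order of the groups on each slide, so it is partly bound to treatment. With slide and position, 2 probe values turned sign: Icam1 A_52_P613241 with DEX against vehicle from -0.34 to 0.53 (adjusted p = 0.716) and Cd86 A_55_P2715366 with FF against vehicle from -0.96 to 0.24 (adjusted p = 0.886). A change of sign not called under either setting was not counted. Over the 7 genes' changes, 1919 repeats kept direction and side of the threshold, 76 lost and 7 gained a call; over their probes' changes these were 2729, 241 and 44. Quantile normalization moved the share of higher calls over all genes in FF against DEX from 44.9% to 59.1%, in VSG158 against DEX from 53.1% to 65.3% and in VSG159 against DEX from 26% to 41.2%. Median scaling moved the median change of all genes in VSG158 against vehicle from -0.06 to -0.12.

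The labels number replicates 1 to 3 in every group, but in no comparison were all 3 same-number correlations over 0.1. With a replicate block the counts of called genes were 4, 6, 6 and 6 against vehicle and 3, 2 and 3 against DEX, as reported.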
